A study of Mus musculus with 6 samples.

Results

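The 7 genes described here, Gucy1a1 (formerly Gucy1a3), Gucy1b1 (formerly Gucy1b3), Prkg1, Prkg2, Pde5a, Npr1 and Npr3, encode proteins that make, read or remove the messenger cyclic GMP, or that clear the peptides that raise it. They were found by symbol among 42623 gene symbols counted in at least 1 of 6 single-cell RNA-Seq libraries of mouse lung fibroblasts (FBs) or FB organoids. Each condition had 1 library, made from 3 mice pooled, so the error between mice is unknown, no p-value is given between conditions, and every interval below is an exact 95% interval of counting error alone.

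All FB donors carried a Pdgfra-GFP reporter, a green fluorescent protein expressed from the Pdgfra locus, and lung cells were sorted on GFP, which makes the reporter itself a criterion for the cells seen. Mice were males of 10 to 14 weeks per the methods of the study. In the single-dose experiment, mice received 50 ul of PBS or a single dose of bleomycin by oropharyngeal aspiration and lungs were taken at day 14. The bleomycin dose is given as 2 U/kg in the protocol and as 4 U/kg in the treatment label. In the repetitive experiment, weekly aspirations of 50 ul held PBS or bleomycin, at 1 U/kg for the first and second dose and 0.5 U/kg for the third, and lungs were taken 2 weeks after the last dose. In the organoid experiment, alveolar type 2 cells (AEC2s) of SpcCreER tomato mice induced with tamoxifen were cultured for 2 weeks with FBs of PBS-dosed (normal) or bleomycin-dosed (fibrogenic, 2 U/kg) mice. Bleomycin is a DNA-damaging drug used to model pulmonary fibrosis.

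Cyclic GMP is made by 2 kinds of enzyme. Soluble guanylyl cyclase, a pair of the subunits encoded by Gucy1a1 and Gucy1b1, is switched on by nitric oxide, whereas the membrane receptor Npr1 is itself a cyclase that is switched on by the natriuretic peptides ANP and BNP. Prkg1 and Prkg2 encode the 2 protein kinases that cyclic GMP activates, Pde5a encodes the phosphodiesterase that hydrolyses it, and Npr3 encodes the clearance receptor that binds natriuretic peptides without making cyclic GMP. In the lung the pathway is best known for relaxing vascular smooth muscle, where inhibitors of PDE5 and stimulators of the soluble cyclase are used as drugs.

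Counts were unique molecular identifiers (UMIs), summed over barcodes and scaled to 1000000 UMIs of the same barcodes (CPM). FB barcodes were those with at least 2 of 8 FB markers and few markers of other lineages after each barcode was thinned to 2000 UMIs, and they numbered 857 (single-dose PBS), 802 (single-dose bleomycin), 5174 (repetitive PBS), 5373 (repetitive bleomycin), 2275 (normal organoid) and 3536 (fibrogenic organoid). FBs were further gated by marker lists as LipoFB (Tcf21, Plin2, Inmt and others), MatrixFB (Col14a1, Pi16, Ly6a and others), MyoFB (Spp1, Cthrc1, Acta2 and others) or Sfrp1 FB (Sfrp1, Ltbp2, Mdk and others), and no member gene was used in any gate. Libraries held 7201081 to 238618743 UMIs, with a median of 2478 UMIs per barcode in the repetitive bleomycin library, where 43.7% of the barcodes had under 2000 UMIs and were left out, and of 4289.5 to 36841 UMIs in the others. At most 30 barcodes were shared by any pair of libraries. All 8 FB markers were detected in the FBs of each lung library, with a summed level of 6845 to 22647 CPM.

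Gucy1a1 and Gucy1b1 are neighbours in the mouse genome. On GRCm38, Gucy1a1 lies at chr3:82092427-82145789 and Gucy1b1 at chr3:82032006-82074689, both on the minus strand, with 17.7 kb and 0 annotated genes between them. Prkg1 spans 1200.5 kb at chr19:30564489-31765033 (minus strand), Prkg2 lies at chr5:98929773-99037351 (minus), Pde5a at chr3:122728947-122859374 (plus), Npr1 at chr3:90450591-90465866 (minus) and Npr3 at chr15:11839896-11907287 (minus). Annotated genes on the opposite strand overlap Prkg1 (3 genes, of which the protein-coding Cstf2t), Pde5a (2), Npr1 (1) and Npr3 (1), and whether the counting used the strand of a read is not given in the sources used here.

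Below, the stretches just before the starts of the cyclase subunit genes are printed because these neighbours were the members whose levels followed each other most closely across gates. Sequences are from RefSeq on GRCm38.p6, minus strand, 5′ to 3′ in the direction of the gene, the stretch of Gucy1a1 ends where its GENCODE gene begins, and capitals mark a GC box (GGGCGG) or a CCAAT box in either orientation (CCAAT or ATTGG).
Gucy1a1, chr3:82145790-82145900: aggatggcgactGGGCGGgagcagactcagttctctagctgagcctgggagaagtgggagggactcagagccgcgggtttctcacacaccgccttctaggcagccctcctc
Gucy1b1, chr3:82074712-82074961: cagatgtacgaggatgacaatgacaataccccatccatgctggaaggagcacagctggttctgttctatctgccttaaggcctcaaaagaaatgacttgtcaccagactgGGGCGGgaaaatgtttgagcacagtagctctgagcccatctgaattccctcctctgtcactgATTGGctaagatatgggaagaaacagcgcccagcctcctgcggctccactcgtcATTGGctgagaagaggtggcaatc

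RefSeq gives Gucy1a1 a further start, whose window held no GC or CCAAT box and is not printed. The windows the printed bases come from each held 1 GC box, beginning 238 bases before the upstream RefSeq start of Gucy1a1 and 140 bases before that of Gucy1b1. Gucy1b1 also held CCAAT boxes on the opposite strand, beginning 78 and 24 bases before its start. Such letters are common, since 32.7% of 32851 mouse windows of 250 bases hold a GC box on either strand and 33.8% hold a CCAAT box. These matches are descriptions of the sequence only.

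The first question was how each gene stood in normal lung FBs and after a single dose of bleomycin. Npr3 was the member with the largest difference over all FBs, and it was higher after bleomycin, whereas Prkg2 was lower and Gucy1a1 was higher by less than 2-fold. Npr3 measured 12.3 CPM in the PBS library (75 UMIs) and 35.7 CPM in the bleomycin library (381 UMIs), a log2 ratio of 1.54 (95% interval 1.18 to 1.92). It was the 1 of 7 members past 2-fold in either direction, beside 11.4% of the 9764 genes with a mean of at least 5 CPM, a limit that Prkg1 did not reach. In summed counts, fewer cells of a type and less RNA per cell cannot be told apart.

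The same question was asked of repetitive dosing. Npr3 measured 33.8 CPM in PBS FBs and 115.8 CPM in bleomycin FBs, a log2 ratio of 1.78 (1.71 to 1.85). Prkg2 measured 255.6 CPM in PBS FBs and 90.9 CPM in bleomycin FBs, a log2 ratio of −1.49 (−1.54 to −1.45). These were the 2 of 7 members past 2-fold, beside 8.66% of 10444 genes, and all 7 reached the limit. The median gene moved by less than 0.1 on the log2 scale in every comparison reported here.

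**Figure D1:**
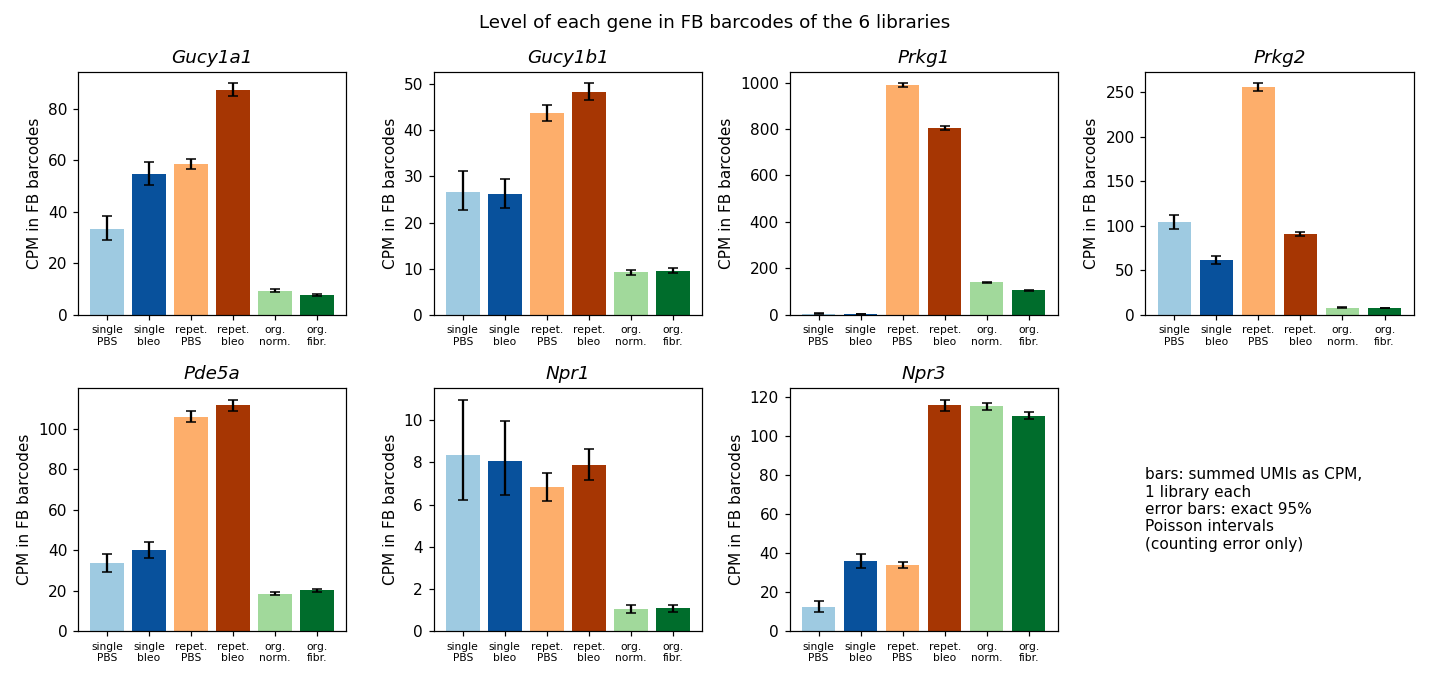
Level in CPM (linear axis, bars from 0) of each gene in the FB barcodes of the 6 libraries, with exact 95% Poisson intervals of counting error. Npr3 stood at 12.3 and 35.7 CPM in the single-dose PBS and bleomycin libraries and at 33.8 and 115.8 CPM in the repetitive ones, whereas Prkg2 stood lower in each bleomycin library than in its PBS library.

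The soluble cyclase subunits differed from each other after bleomycin. Over all FBs, Gucy1a1 measured 33.4 CPM (PBS) and 54.7 CPM (bleomycin) after a single dose, a log2 ratio of 0.71 (0.48 to 0.95), and 58.6 and 87.5 CPM after repetitive dosing, a log2 ratio of 0.58 (0.51 to 0.64). Gucy1b1 measured 26.7 and 26.1 CPM after a single dose, a log2 ratio of −0.03 (−0.31 to 0.26), and 43.7 and 48.3 CPM after repetitive dosing, a log2 ratio of 0.14 (0.07 to 0.22). The alpha subunit was thus higher in both bleomycin libraries, while the interval of the beta subunit included 0 after a single dose. The ratio of Gucy1a1 to Gucy1b1 UMIs over FBs was 1.25 in PBS and 2.09 in bleomycin after a single dose, and 1.34 and 1.81 after repetitive dosing.

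The sums over all FBs mix gates whose shares differed between libraries. Of the FB barcodes, LipoFB-gated ones numbered 734 of 857 in single-dose PBS and 303 of 802 in single-dose bleomycin, and 4374 of 5174 and 2168 of 5373 in the repetitive libraries. MyoFB-gated barcodes numbered 1 in each PBS library, 79 in single-dose bleomycin and 214 in repetitive bleomycin. The gates were therefore also compared 1 by 1. A lead of 1 marker over the next list set 32 of 734 PBS and 60 of 303 bleomycin LipoFBs after a single dose. After repetitive dosing it set 171 of 4374 and 588 of 2168. In the single-dose and repetitive bleomycin libraries it set 61 of 118 and 317 of 547 Sfrp1 FBs, and 30 of 79 and 101 of 214 MyoFBs. The part of mixing between gates in the ratios by gate was not tested.

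Within the LipoFB gate the cyclase subunits were both higher after bleomycin, and Gucy1a1 by more. Gucy1a1 measured 34.5 CPM in PBS and 100.5 CPM in bleomycin LipoFBs after a single dose, a log2 ratio of 1.54 (1.28 to 1.81), and 66.6 and 134.2 CPM after repetitive dosing, a log2 ratio of 1.01 (0.94 to 1.08). Gucy1b1 measured 27.2 and 41.3 CPM after a single dose, a log2 ratio of 0.60 (0.27 to 0.94), and 49.1 and 69.4 CPM after repetitive dosing, a log2 ratio of 0.50 (0.41 to 0.59). The intervals of the 2 genes did not overlap in either experiment. In the same LipoFB barcodes the mural list summed to 99.8 CPM in PBS and 203 CPM in bleomycin after a single dose and to 66.9 and 124 CPM after repetitive dosing, the immune list to 45.4 and 161 CPM and to 17.3 and 69.8 CPM, and the endothelial list to 31.4 and 62.0 CPM and to 13.6 and 16.2 CPM. Their part in the result was not tested. The repetitive value of Gucy1a1 lies at the 2-fold limit, and stayed past it under 4 of 9 other ways of processing (0.83 to 1.07).

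Members past 2-fold within the LipoFB gate numbered 3 of 7 after a single dose (Gucy1a1 higher, Prkg2 and Npr1 lower), beside 8.96% of 9509 genes. Npr1 lay under the limit of 5 CPM there, with 30 UMIs in PBS and 10 UMIs in bleomycin. They numbered 3 of 7 after repetitive dosing (Gucy1a1 and Npr3 higher, Prkg2 lower), beside 6.90% of 10278 genes.

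Shares of barcodes with a UMI differed in the same direction. After thinning to 2000 UMIs, Gucy1a1 was detected in 6.54% of PBS and 17.5% of bleomycin LipoFBs after a single dose, and in 12.2% and 19.97% after repetitive dosing. Without thinning these shares were 18.9%, 54.1%, 41.3% and 51.5%, at medians of 7108.5, 12164, 10821 and 10293.5 UMIs per barcode. Immune-gated barcodes serve here as a rough guide to the level that free RNA can give. Their thinned share with Gucy1a1 was 1.45% to 2.50% in the 4 lung libraries, at medians of 4612 to 7354 UMIs. The FB list summed to 1666 to 2851 CPM in these barcodes, so they were not free of FB RNA, whose source was not tested.

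The MatrixFB gate held little of either subunit. Gucy1a1 measured 5.90 CPM in repetitive PBS (31 UMIs) and 23.3 CPM in repetitive bleomycin MatrixFBs (260 UMIs), a log2 ratio of 1.98 (1.44 to 2.57). Gucy1b1 measured 5.52 CPM (29 UMIs) and 13.9 CPM (155 UMIs) there, a log2 ratio of 1.33 (0.75 to 1.96). They were the 2 of 7 members past 2-fold, beside 4.33% of 10376 genes. In the same MatrixFB barcodes the immune list summed to 4.95 and 78.5 CPM, the endothelial list to 14.3 and 28.3 CPM and the mural list to 124 and 163 CPM, and their part in the result was not tested. Both PBS levels were below those of the immune barcodes of the same library (18.6 and 13.8 CPM), and the bleomycin level of Gucy1a1 was close to that of the immune barcodes of its library (22.2 CPM, and 9.83 CPM for Gucy1b1). After thinning, Gucy1a1 was found in 1.12% and 4.86% of repetitive PBS and bleomycin MatrixFBs, against 2.36% and 2.50% of immune barcodes, and Gucy1b1 in 1.31% and 3.80%, against 1.97% and 1.39%. The part of free RNA in these values was not tested.

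After a single dose the MatrixFB gate had too few UMIs to compare most members. Gucy1a1 had 6 UMIs in PBS and 9 in bleomycin, Gucy1b1 had 6 and 5, and Prkg1 had 0 and 6. Gucy1b1 was past 2-fold (12.2 and 3.98 CPM, log2 ratio −1.62, interval −3.67 to 0.36), and Prkg1 with 0 UMIs in PBS has no ratio, beside 17.2% of 9625 genes. No interval of a member excluded 0 in this comparison.

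**Figure D2:**
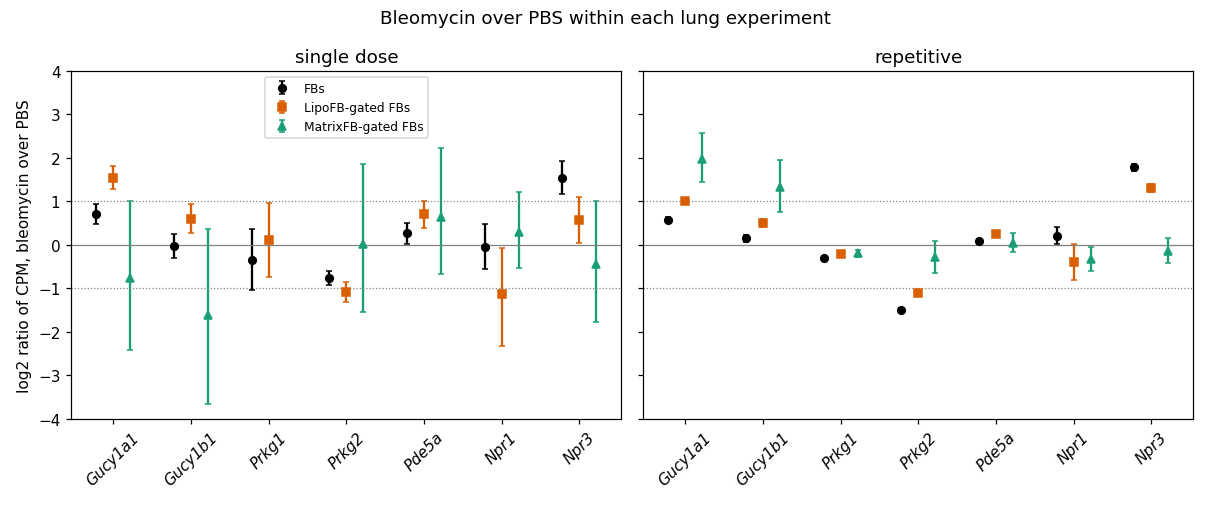
Log2 ratio of CPM, bleomycin over PBS, for each gene in all FBs (circles), LipoFB-gated FBs (squares) and MatrixFB-gated FBs (triangles) of the single-dose (left) and repetitive (right) experiments, with exact 95% intervals and dotted lines at 2-fold. Gucy1a1 stood higher in the LipoFB gate (1.54 and 1.01) than over all FBs (0.71 and 0.58), Npr3 stood lower in the gate than over all FBs, and Prkg1 in single-dose MatrixFBs is not drawn because the PBS count was 0.

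With all UMIs counted, barcodes with 1 subunit of the cyclase held the other more often than barcodes without it. Gucy1b1 was detected in 51.8% of repetitive PBS FBs with a Gucy1a1 UMI and in 19.2% of those without, and in 53.3% and 13.3% of repetitive bleomycin FBs. After a single dose the shares were 22.4% and 13.5% in PBS and 40.0% and 17.2% in bleomycin FBs. Organoid FBs gave 62.8% and 14.5% with normal FBs and 63.9% and 11.7% with fibrogenic FBs. Barcodes with more UMIs are more likely to hold either gene. After thinning, the shares within repetitive LipoFBs were 15.4% and 9.14% (PBS) and 19.6% and 10.1% (bleomycin), whereas in single-dose bleomycin LipoFBs they were 9.43% and 9.60%, with 5 barcodes holding both, and in single-dose PBS LipoFBs 6.25% and 5.54%, with 3 barcodes holding both. Thinned barcodes with both numbered 83 of 5174 repetitive PBS FBs and 4 of 857 single-dose PBS FBs.

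Among the LipoFB, MatrixFB, MyoFB and Sfrp1 FB gates of the bleomycin libraries, Gucy1a1 was highest in LipoFBs. In single-dose bleomycin it measured 100.5 CPM in LipoFBs, 38.2 in Sfrp1 FBs, 22.8 in MyoFBs and 7.16 in MatrixFBs. After repetitive dosing it measured 134.2, 77.4, 42.9 and 23.3 CPM in the same order. The order was the same in both experiments, although the single-dose intervals of Sfrp1 FBs (29.2 to 49.1) and MyoFBs (16.0 to 31.4) overlapped.

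Gucy1b1 followed a similar order, with 41.3 CPM in LipoFBs, 21.5 in MyoFBs, 18.2 in Sfrp1 FBs and 3.98 in MatrixFBs after a single dose. After repetitive dosing the levels were 69.4 CPM in LipoFBs, 44.99 in Sfrp1 FBs, 29.7 in MyoFBs and 13.9 in MatrixFBs. The single-dose MyoFB and Sfrp1 FB levels did not differ beyond their intervals. Outside the FBs, Gucy1a1 measured 148 and 143 CPM in endothelial-gated barcodes of the single-dose and repetitive PBS libraries (34 and 110 barcodes). In these barcodes the FB list summed to 3900 and 2705 CPM, against 10311 and 6845 CPM in the FBs. The mural list summed to 633 and 216 CPM there, against 123.5 and 76.5 CPM in the FBs. The part of FB or mural RNA in the endothelial values given here and below was not tested. The 34 mural-gated barcodes of repetitive bleomycin, which were counted within the FBs, held 225 CPM (171 to 290).

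The kinases behaved unlike each other. Prkg2, the membrane-anchored type II kinase best known from gut and growth plate, was higher in LipoFBs than in MatrixFBs of PBS lung. It measured 117.6 CPM in single-dose PBS LipoFBs and 10.2 CPM in MatrixFBs (5 UMIs), a log2 ratio of MatrixFB over LipoFB of −3.53 (−5.16 to −2.30). In repetitive PBS it measured 289.4 and 19.6 CPM, a log2 ratio of −3.88 (−4.18 to −3.61). LipoFBs held 96.8% of the Prkg2 UMIs of single-dose PBS FBs and 96.9% of those of repetitive PBS FBs, with 85.4% and 85.6% of all FB UMIs. Endothelial-gated barcodes of these libraries, which also held UMIs of the FB list, had 58.5 and 145.5 CPM. The part of FB RNA in these values was not tested.

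Prkg2 was lower in the bleomycin LipoFBs of both experiments. In single-dose bleomycin it measured 55.5 CPM there, a log2 ratio to PBS LipoFBs of −1.08 (−1.32 to −0.86), and after repetitive dosing 134.9 CPM, a log2 ratio of −1.10 (−1.16 to −1.05). The thinned share of LipoFBs with a Prkg2 UMI was 20.6% in PBS and 10.2% in bleomycin after a single dose, and 41.0% and 22.4% after repetitive dosing. In immune barcodes of the same libraries it was 3.70%, 0%, 2.76% and 1.39%, where the 0 of 69 barcodes allows a share of up to 4.35% (3 barcodes of the total).

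Over all FBs after a single dose, Prkg2 measured 103.7 CPM in PBS and 61.4 CPM in bleomycin, a log2 ratio of −0.76 (−0.92 to −0.60). This ratio was −1.08 without the 5% of barcodes with the most UMIs and −1.10 as a mean over barcodes, past 2-fold in both cases. MyoFBs gave 44.1% of the Prkg2 UMIs of the single-dose bleomycin FBs, from 15.2% of their UMIs, and LipoFBs gave 32.3%.

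Prkg2 in MyoFBs differed between the experiments. In the single-dose library it measured 177.8 CPM in MyoFBs (289 UMIs, 79 barcodes) and 55.5 CPM in LipoFBs, a log2 ratio of 1.68 (1.42 to 1.94). After repetitive dosing it measured 112.8 CPM in MyoFBs (350 UMIs, 214 barcodes) and 134.9 CPM in LipoFBs, a log2 ratio of −0.26 (−0.42 to −0.10). MyoFBs thus held more Prkg2 than LipoFBs in 1 experiment and less in the other, with 1 library each, and the difference between the experiments was not tested. Sfrp1 FBs were below LipoFBs in both, with 31.3 CPM after a single dose (log2 ratio −0.82) and 68.7 CPM after repetitive dosing (log2 ratio −0.97).

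Prkg1, the type I kinase that mediates relaxation of smooth muscle, was detected at very different levels in the 2 lung experiments. It measured 5.24 CPM in single-dose PBS FBs (32 UMIs) and 4.12 CPM in single-dose bleomycin FBs (44 UMIs), a log2 ratio of −0.35 (−1.04 to 0.36). In the repetitive libraries it measured 988.1 CPM in PBS FBs and 804.8 CPM in bleomycin FBs, a log2 ratio of −0.30 (−0.31 to −0.28). The difference within each experiment was less than 2-fold, and with 32 and 44 UMIs in the single-dose libraries no difference was detectable.

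The gap between the experiments went with gene length. In repetitive PBS FBs over single-dose PBS FBs, the median log2 ratio after adding 1 CPM was −0.38 for 3854 genes shorter than 20 kb, 0.45 for 4124 genes of 20 to 100 kb, 1.49 for 1119 genes of 100 to 300 kb and 2.73 for 269 genes above 300 kb. Prkg1, at 1200.5 kb, was 189-fold higher in the repetitive PBS library, far above the median of its length class, and Npr1, at 15.3 kb, was lower there (6.82 against 8.35 CPM). Whether reads in introns were counted is not given in the sources used here, so what a level of Prkg1 holds in the repetitive libraries is uncertain. The levels of the members were therefore compared within an experiment only. Within each experiment, the medians of bleomycin over PBS for the same 4 classes lay between −0.00 and 0.11 after a single dose and between 0.07 and 0.19 after repetitive dosing.

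**Figure D3:**
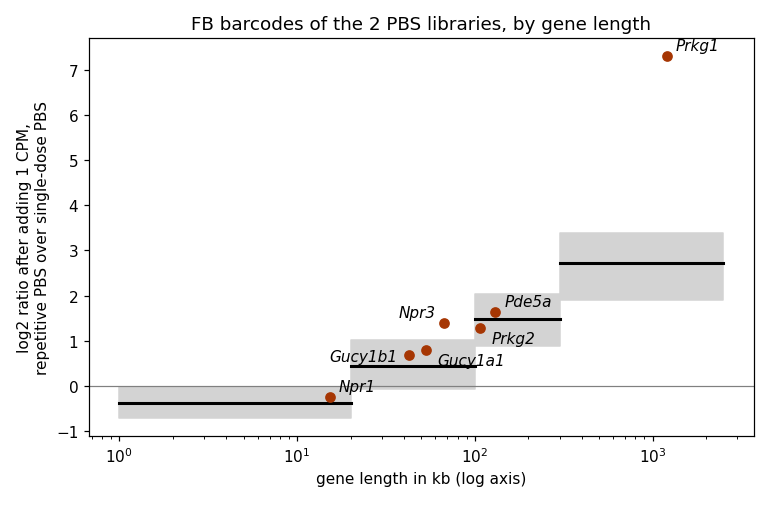
Log2 ratio of CPM (after adding 1 CPM) of repetitive PBS over single-dose PBS FBs against gene length in kb (log axis), with the 7 genes as points and, for each length class, the median of all genes as a line and the middle 50% of genes as a grey box. The medians go from −0.38 in the shortest to 2.73 in the longest class, 6 of the genes lie within 1 log2 unit of the median of their class, and Prkg1 lies far above it.

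Across gates of the repetitive libraries, Prkg1 was lower in MatrixFBs than in the other FB gates. In PBS it measured 1073 CPM in LipoFBs and 360.6 CPM in MatrixFBs, a log2 ratio of −1.57 (−1.64 to −1.51). In bleomycin it measured 1000 CPM in Sfrp1 FBs, 941.6 in MyoFBs, 920.3 in LipoFBs and 313.9 in MatrixFBs. MyoFBs and LipoFBs did not differ beyond their interval (log2 ratio 0.03, −0.02 to 0.09). Immune barcodes held 265 CPM of Prkg1 in PBS and 149 CPM in bleomycin, and a Prkg1 UMI was found after thinning in 11.4% and 14.4% of them, against 36.4% and 36.7% of MatrixFBs and 78.4% and 73.1% of LipoFBs.

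Pde5a, the phosphodiesterase, was past 2-fold with bleomycin in none of the gates compared. Over all FBs it measured 33.4 CPM in PBS and 40.0 CPM in bleomycin after a single dose, a log2 ratio of 0.26 (0.02 to 0.51), and 105.8 and 111.5 CPM after repetitive dosing, a log2 ratio of 0.08 (0.03 to 0.13). In LipoFBs it was 30.6 and 49.7 CPM after a single dose, a log2 ratio of 0.70 (0.39 to 1.01), and 113.0 and 133.5 CPM after repetitive dosing, a log2 ratio of 0.24 (0.18 to 0.30). All of these values were higher in bleomycin.

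Pde5a was lower in MatrixFBs than in LipoFBs of every lung library. In repetitive bleomycin it measured 133.5 CPM in LipoFBs, 116.6 in Sfrp1 FBs, 106.7 in MyoFBs and 48.8 in MatrixFBs, and the MatrixFB level hardly differed from that of repetitive PBS (47.2 CPM, log2 ratio 0.05, interval −0.17 to 0.27). After a single dose, Sfrp1 FBs (41.4 CPM) and LipoFBs (49.7 CPM) did not differ beyond their intervals, and MatrixFBs stood at 19.1 CPM. The endothelial-gated barcodes of the PBS libraries held more, at 107 and 206 CPM. After thinning, a Pde5a UMI was found in 50% of the 34 mural-gated barcodes of repetitive bleomycin, against 21.7% of LipoFBs.

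Among the LipoFB, MatrixFB, MyoFB and Sfrp1 FB gates of the bleomycin libraries, the natriuretic peptide receptors were highest in different gates. Outside these gates, 14.7% of the 34 mural-gated barcodes of repetitive bleomycin had an Npr1 UMI after thinning, against 4.43% of MatrixFBs. Npr1, the cyclase receptor, was the 1 member that was higher in MatrixFBs than in LipoFBs in every lung library. It measured 32.5 CPM in MatrixFBs and 5.75 CPM in LipoFBs of single-dose PBS (16 and 30 UMIs), and 34.0 and 3.69 CPM in repetitive PBS (179 and 185 UMIs). In bleomycin it measured 39.8 and 2.62 CPM after a single dose (50 and 10 UMIs), and 27.2 and 2.80 CPM after repetitive dosing (304 and 69 UMIs).

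The log2 ratios of MatrixFB over LipoFB for Npr1 were 2.50 (1.53 to 3.42) and 3.21 (2.90 to 3.51) in the PBS libraries and 3.93 (2.93 to 5.07) and 3.28 (2.90 to 3.68) in the bleomycin libraries. MatrixFBs held 44.9% of the Npr1 UMIs of repetitive PBS FBs, from 8.98% of the UMIs, and 66.8% of those of repetitive bleomycin FBs, from 19.3% of the UMIs. MyoFBs held 2 Npr1 UMIs in each bleomycin library (1.23 and 0.645 CPM). The thinned share of MatrixFBs with an Npr1 UMI was 4.30% to 11.2% in the 4 libraries, against 0.323% to 1.499% of LipoFBs and 0% to 1.85% of immune barcodes, where 0 of 69 and 0 of 254 barcodes allow shares of up to 4.35% and 1.18% by the same rule.

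Against this pattern, the other members were mostly lower in MatrixFBs. In the single-dose libraries, 5 of 7 members were past 2-fold between MatrixFB and LipoFB in PBS (Npr1 higher, 4 lower), beside 23.3% of 9525 genes. Prkg1, with 0 against 29 UMIs, had no ratio there. Pde5a and Gucy1b1, with 6 MatrixFB UMIs each, kept their calls under 7 and 8 of 9 other ways of processing. In single-dose bleomycin 5 of 7 were past 2-fold, beside 17.1% of 9768 genes. Prkg1 (−2.76 to −0.26) and Npr3 (−1.71 to −0.39) stayed short of 2-fold there under 6 and 8 of 9. In the repetitive libraries, 6 of 7 members were past 2-fold in PBS, beside 16.2% of 10293 genes, and all 7 in bleomycin, beside 12.8% of 10583 genes. Npr3 had a MatrixFB to LipoFB log2 ratio of −0.15 (−0.40 to 0.09) in repetitive PBS and −1.60 (−1.78 to −1.42) in repetitive bleomycin, while its single-dose ratios of 0.55 (−0.73 to 1.62) and −0.47 (−1.39 to 0.36) did not exclude 0.

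Over all FBs, Npr1 measured 8.35 CPM in PBS and 8.05 CPM in bleomycin after a single dose, a log2 ratio of −0.05 (−0.57 to 0.48), and 6.82 and 7.89 CPM after repetitive dosing, a log2 ratio of 0.21 (0.01 to 0.41). Within MatrixFBs the repetitive log2 ratio was −0.32 (−0.59 to −0.05), opposite in sign to the sum, while MatrixFBs went from 8.98% to 19.3% of the FB UMIs. With every barcode counted in place of FBs, the ratios were −0.69 and −0.12. Endothelial-gated barcodes, where Npr1 measured 144 CPM (single-dose PBS) and 74.7 CPM (repetitive PBS), numbered 34 and 6 in the single-dose PBS and bleomycin libraries and 110 and 28 in the repetitive ones.

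**Figure D4:**
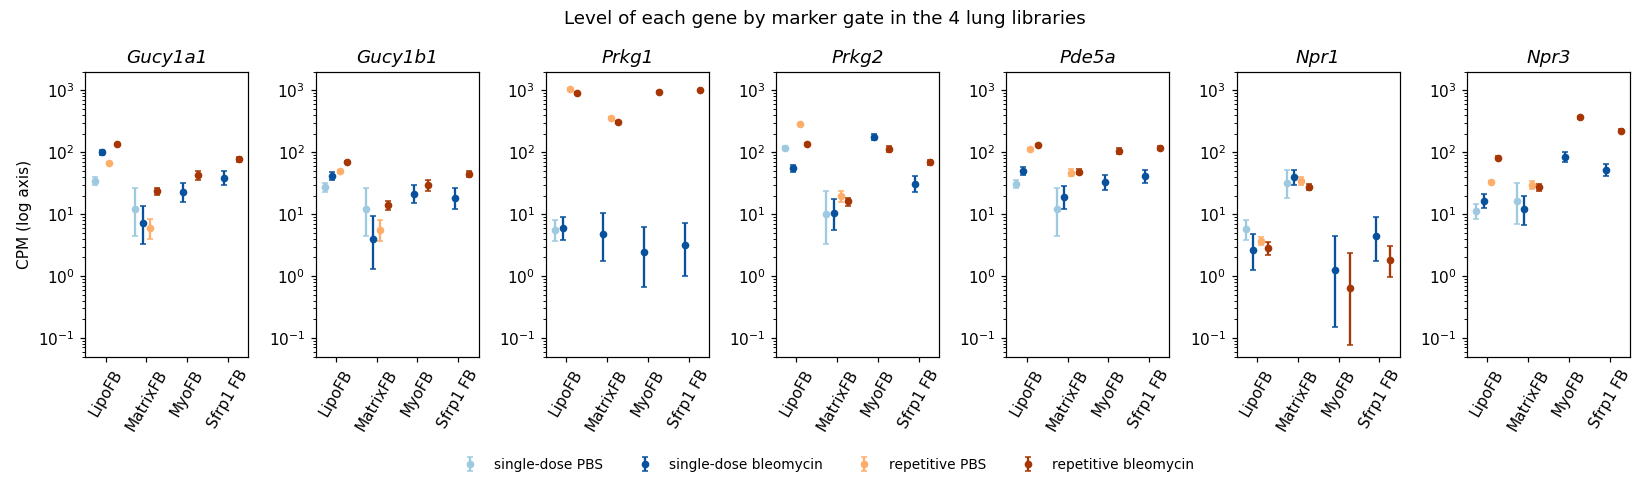
Level in CPM (log axis) of each gene in LipoFB, MatrixFB, MyoFB and Sfrp1 FB barcodes of the 4 lung libraries, with exact 95% Poisson intervals. MyoFB and Sfrp1 FB gates of the PBS libraries held under 20 barcodes and are not drawn, nor is Prkg1 in single-dose PBS MatrixFBs (0 UMIs), and Npr1 is the gene that stands highest in MatrixFBs, whereas Npr3 stands highest in MyoFBs (84.3 and 365.9 CPM).

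Npr3, the clearance receptor, was highest among the 4 FB gates in those that were large in the bleomycin libraries alone. In the PBS libraries it was higher in endothelial-gated barcodes than in LipoFBs, at 99.7 against 11.1 CPM (single dose) and 124 against 33.1 CPM (repetitive). In single-dose bleomycin it measured 84.3 CPM in MyoFBs, 52.7 in Sfrp1 FBs, 16.5 in LipoFBs and 11.9 in MatrixFBs. After repetitive dosing it measured 365.9 CPM in MyoFBs, 225.2 in Sfrp1 FBs, 82.0 in LipoFBs and 27.1 in MatrixFBs. The order was the same in both experiments, and the single-dose intervals of LipoFBs (12.7 to 21.1) and MatrixFBs (6.68 to 19.7) overlapped.

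MyoFB over LipoFB gave a log2 ratio for Npr3 of 2.35 (1.91 to 2.81) after a single dose and 2.16 (2.05 to 2.26) after repetitive dosing. Members past 2-fold in this contrast numbered 5 of 7 after a single dose (Npr3 and Prkg2 higher, Gucy1a1, Prkg1 and Npr1 lower), beside 15.7% of 9628 genes, but Prkg1 and Npr1 had 4 and 2 UMIs in MyoFBs, lay under 5 CPM, had intervals that included 0 and kept their calls under 7 of 9 and 6 of 8 other ways of processing. At 5 CPM the count was 3 of 5. They numbered 4 of 7 after repetitive dosing (Npr3 higher, Gucy1a1, Gucy1b1 and Npr1 lower), beside 14.6% of 10555 genes, where Npr1 had 2 UMIs in MyoFBs and lay under 5 CPM and Gucy1b1 kept its call under 6 of 9 other ways of processing (−1.61 to −0.79). Sfrp1 FB over LipoFB gave 1.68 (1.19 to 2.17) and 1.46 (1.36 to 1.55) for Npr3, with 3 of 7 members past 2-fold after a single dose, beside 8.82% of 9734 genes (Gucy1b1 kept its call under 7 of 9 other ways of processing, −1.27 to −0.66), and 1 of 7 after repetitive dosing, beside 3.07% of 10518 genes.

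The mural list (Myh11, Cnn1, Des, Notch3 and others) was also higher in bleomycin FBs. Its 10 markers summed to 123.5 CPM in PBS and 326.7 CPM in bleomycin FBs after a single dose, and to 76.5 and 176.4 CPM after repetitive dosing, with 715 and 361 CPM in MyoFBs of the bleomycin libraries and 1 of the 10 markers at 0 in single-dose PBS FBs. The endothelial list summed to 38.6 and 34.3 CPM and to 14.0 and 19.3 CPM, and the immune list to 79.2 and 144 CPM and to 18.4 and 76.2 CPM. The part of these lists in the result was not tested. Mural-gated barcodes themselves held 143 CPM of Npr3 in repetitive bleomycin, below the MyoFB level, and with them left out each of the 21 values over FBs moved by less than its interval.

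Within LipoFBs alone, Npr3 measured 11.1 CPM in PBS and 16.5 CPM in bleomycin after a single dose, a log2 ratio of 0.57 (0.03 to 1.11), and 33.1 and 82.0 CPM after repetitive dosing, a log2 ratio of 1.31 (1.21 to 1.40). LipoFBs gave 77.3% of the Npr3 UMIs of single-dose PBS FBs and 16.5% of those of bleomycin FBs, from 85.4% and 35.8% of all FB UMIs. In the repetitive libraries LipoFBs gave 84.1% and 30.3%, from 85.6% and 42.7% of all FB UMIs. In MatrixFBs the repetitive log2 ratio was −0.14 (−0.42 to 0.15). The thinned share of MyoFBs with an Npr3 UMI in repetitive bleomycin was 39.7%, against 12.7% of LipoFBs and 1.94% of immune barcodes.

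**Figure D5:**
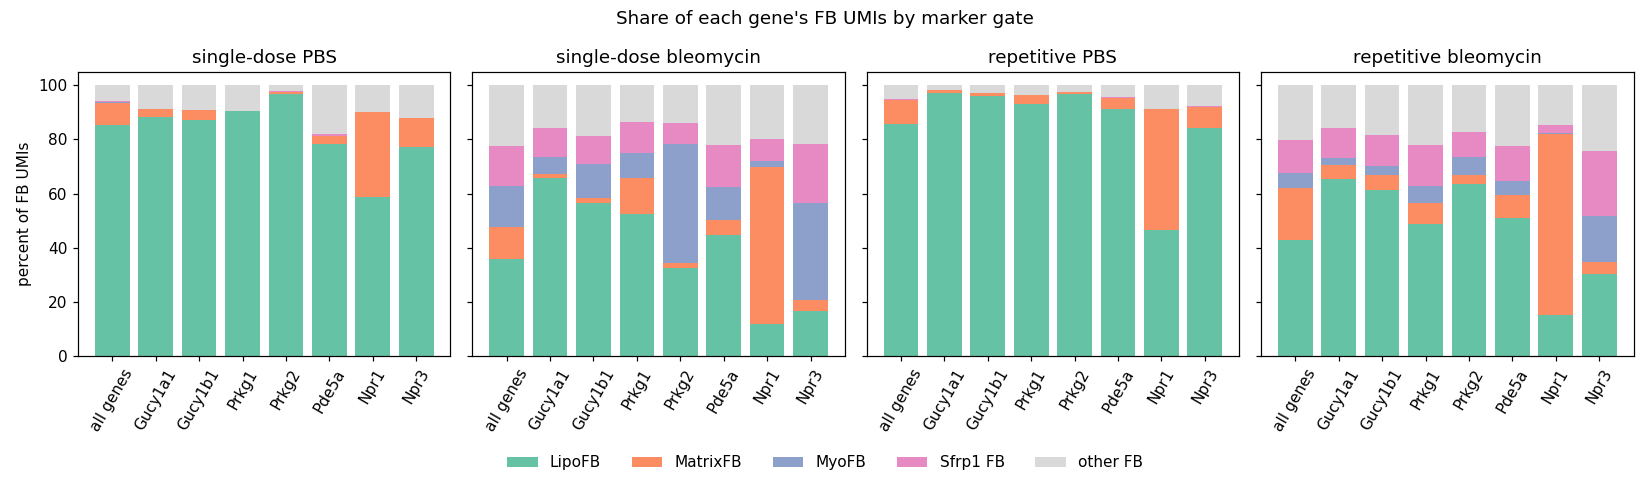
Percent of each gene's FB UMIs that came from each marker gate, beside the share of all FB UMIs (first bar), in the 4 lung libraries. In single-dose bleomycin, MyoFBs gave 44.1% of the Prkg2 and 36.0% of the Npr3 UMIs from 15.2% of all UMIs, and MatrixFBs gave 58.1% of the Npr1 UMIs from 11.8%.

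To see how far the sums followed the makeup of the libraries, the bleomycin levels of the LipoFB gate, the MatrixFB gate and the remaining FBs were weighted by the UMI shares of the PBS library. The log2 ratio of Npr3 was then 0.60 in place of 1.54 after a single dose and 1.30 in place of 1.78 after repetitive dosing. That of Gucy1a1 was 1.41 in place of 0.71 and 1.04 in place of 0.58. The ratio of Prkg2 went in the 2 directions, to −0.96 from −0.76 after a single dose and to −1.08 from −1.49 after repetitive dosing. These 3 genes kept their sign. Npr1 after repetitive dosing went to −0.43 from 0.21, Gucy1b1 after a single dose to 0.47 from −0.03, and Prkg1 after a single dose to 0.12 from −0.35. The remaining FBs themselves differed in makeup, so the weighting did not remove all differences in makeup. Of the FB UMIs, MyoFBs and Sfrp1 FBs held 0.248% and 0.329% in single-dose PBS, against 15.2% and 14.9% in single-dose bleomycin. In the repetitive libraries these shares were 0.0197% and 0.236%, against 5.38% and 12.4%.

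The members were also compared with each other and with 7977 genes over 15 groups, the gates of at least 50 barcodes in the 4 lung libraries, on log2 levels centred within each experiment. These groups share libraries, depth and free RNA, and the correlations are descriptions. The gene most like Gucy1a1 was Gucy1b1, and the reverse also held, with a Pearson r of 0.966. Next to them came Eva1b (0.943) and Crim1 (0.921) for Gucy1a1 and Etv1 (0.935) and Ccdc141 (0.930) for Gucy1b1.

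For the other members the closest genes were no members. They were Ddi2 (0.925), Cep68 (0.910) and Ptprs (0.909) for Prkg1, Tmsb4x (0.930), Schip1 (0.930) and Fermt2 (0.908) for Prkg2, and Adcy2, Ptk7 and Nedd9 (0.985 to 0.986) for Pde5a. Npr1 was most like Srpx (0.970), Foxo1 (0.962) and Timp2 (0.961), and Npr3 most like Tmem26 (0.962), Bcl11a (0.957) and Itgb5 (0.957). Npr1 correlated negatively with each of the other 6 members. In the single-dose gates Prkg1 had 0 to 29 UMIs and Npr1 had 2 to 50, so counting error is large in their correlations.

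In organoids the question was whether FBs taken from bleomycin-dosed lungs still differed after 2 weeks with AEC2s. Every member differed by less than 2-fold, 0 of 7 being past it beside 1.40% of 9958 genes. The largest difference was that of Prkg1, with 139.9 CPM in normal and 105.7 CPM in fibrogenic organoid FBs, a log2 ratio of −0.40 (−0.44 to −0.37). Gucy1a1 followed with 9.43 and 7.80 CPM, a log2 ratio of −0.27 (−0.39 to −0.16).

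The genes that differed in lung showed little difference in organoid FBs. Npr3 measured 115.1 CPM in normal and 110.4 CPM in fibrogenic organoid FBs (log2 ratio −0.06, −0.09 to −0.03), and Prkg2 measured 7.96 and 7.58 CPM (−0.07, −0.19 to 0.05). Gucy1b1 measured 9.25 and 9.59 CPM (0.05, −0.06 to 0.16), and Pde5a 18.4 and 20.1 CPM (0.13, 0.05 to 0.21). MyoFB-gated barcodes were 1151 of 2275 normal and 2038 of 3536 fibrogenic organoid FBs, and LipoFB-gated barcodes were 21 and 20.

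Npr1 was an epithelial gene in the organoids. It measured 1.04 and 1.07 CPM in FBs, against 14.0 CPM in the 1833 epithelial barcodes of the normal and 13.05 CPM in the 1800 epithelial barcodes of the fibrogenic culture. An Npr1 UMI was found in 36.8% and 27.6% of epithelial barcodes and in 3.96% and 3.20% of FBs, and after thinning in 2.78% and 2.39% against 0.176% and 0.283%. The remaining 6 members were lower in epithelial barcodes than in FBs, with Gucy1a1 at 0.0739 and 0.213 CPM.

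The rest of the pathway was read from a list of 36 genes for the makers of nitric oxide, the natriuretic peptides and their processing, other phosphodiesterases and the targets of the kinases. In single-dose FBs 30 of the 36 had a UMI and 13 reached 5 CPM, of which 2 were higher by 2-fold (Pde1a, Pde3a) and 1 was lower (Mme), beside 11.4% of all genes in either direction, with a median log2 ratio of −0.17 over the 13, beside 0.06 over all genes. In repetitive FBs 18 reached 5 CPM, of which 4 were higher (Pde1a, Pde3a, Pde3b, Irag1) and 1 was lower (Mme), beside 8.66% of all genes, with a median of 0.22, beside 0.09. With every barcode of the lung libraries counted in place of FBs, fewer passed 2-fold. After a single dose 13 reached 5 CPM, with 1 higher (Pde1a) and 0 lower, beside 10.5% of all genes. After repetitive dosing 20 did, with 2 higher (Pde1a, Irag1) and 1 lower (Mme), beside 8.35%. In organoid FBs 21 reached 5 CPM, with 0 higher and 1 lower (Mme), beside 1.40% of all genes.

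Mme, the peptidase neprilysin that degrades natriuretic peptides, measured 112.4 CPM in PBS and 55.7 CPM in bleomycin FBs after a single dose, and 265.4 and 120.0 CPM after repetitive dosing (log2 ratios −1.01 and −1.15). In LipoFBs its log2 ratios were −0.35 and −0.51. The phosphodiesterases Pde1a, which also takes cyclic AMP, and Pde3a, which cyclic GMP inhibits, were higher over FBs, at 10.6 and 21.9 CPM and at 35.4 and 72.8 CPM for Pde1a (log2 ratio 1.04 in each experiment), and at 3.44 and 8.99 CPM and at 16.4 and 43.8 CPM for Pde3a (1.39 and 1.42). The Pde1a ratios and the single-dose Mme ratio lie close to the 2-fold limit. Within LipoFBs, 0 of the 12 pathway genes at 5 CPM were past 2-fold after a single dose, beside 8.96% of 9509 genes. After repetitive dosing 2 of 18 were (Pde3a and Irag1), beside 6.90% of 10278 genes.

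Among the other pathway genes of at least 20 CPM in a lung library, Npr2, the receptor of C-type natriuretic peptide, measured 39.3 and 25.4 CPM after a single dose and 38.3 and 28.1 CPM after repetitive dosing (log2 ratios −0.63 and −0.45). Rgs2, a brake on G protein signals that the type I kinase can phosphorylate, had log2 ratios of opposite sign in the 2 experiments, with 318.4 and 211.6 CPM (−0.59) and 209.8 and 242.0 CPM (0.21). The others, Vasp, Pde9a, Pde10a, Ddah2, Ppp1r12a, Ppp1r12b, Itpr1 and Abcc5, had log2 ratios of −0.51 to 1.41 after a single dose, the highest being Pde10a, which was past 2-fold (2.29 and 6.08 CPM) but not counted above because its mean lay under 5 CPM, and of −0.18 to 0.71 after repetitive dosing.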

How the data were processed

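Droplet 3′ RNA-Seq was done on 6 libraries, 1 per condition, each from 3 pooled mice. The authors aligned and counted reads with Cell Ranger 3.0.1 (analysed further in Seurat 3, per the submitters' processing notes) against the mm10 (GRCm38) genome, and deposited unnormalized UMI counts per gene symbol and barcode. The methods name a GENCODE annotation without saying for which libraries, and give a kit for GFP+ cells of PBS- and bleomycin-dosed mice without naming the repetitive or organoid libraries. The single-dose tables held 30830 and 30828 gene rows and the others 32285. Gucy1a3, Gucy1b3 and Mrvi1 were read as Gucy1a1, Gucy1b1 and Irag1.

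With Python 3.11.15, numpy 2.4.6, scipy 1.17.1 and pandas 2.3.3, barcodes with under 2000 UMIs, or more than 3 scaled median absolute deviations above the library median in mitochondrial share, were left out of the gates. After thinning to 2000 UMIs, a barcode belonged to another lineage with at least 2 epithelial, endothelial or immune markers whose UMIs were at least 1 in 3 of its FB-marker UMIs, and to a subset with at least 3 of 8 markers (mural, mesothelial and cycling gates first). No doublet caller was run, and an alternative left out the 5% of barcodes with the most UMIs. Summed UMIs were given as CPM with exact Poisson intervals, compared as log2 ratios of CPM without pseudocount with exact conditional intervals, and shares of barcodes were taken after thinning. Called genes had a mean of at least 5 CPM and a 2-fold ratio. The log2 ratios and their intervals were tested on simulated Poisson counts with no spread between barcodes. The gates, the weighting by makeup and the likeness were not part of that test. Depth ran from 7201081 to 238618743 UMIs per library, and intervals cover counting error only.

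The 17 comparisons and their alternatives are weighed by size, with no p-value, since each condition has 1 library. All 7 members are named throughout. Of the 36 pathway genes those named had at least 20 CPM in FBs of a lung library or were past 2-fold the same way in both lung experiments, and for likeness the 3 genes of highest r among genes that reached 20 CPM and mark no gate. Members, lists and gates were chosen with earlier results of these data known. The comparisons of MatrixFB and Sfrp1 FB with LipoFB, the weighting by makeup, the bins of gene length and the counts over every barcode were added after seeing the data, and Pde3b, Irag1, Nppb, Trpc6, Ddah1 and Nppc are named after their values were seen.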

Additional observations from a re-analysis of the deposited data

Results flagged for a closer look

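The position of Prkg2 differed between the bleomycin libraries. MyoFB over LipoFB gave a log2 ratio of 1.68 after a single dose and of −0.26 after repetitive dosing, opposite in sign. The difference was not tested, since each experiment had 1 bleomycin library. Under the 9 alternatives the ratio ran from 1.24 to 2.10 after a single dose and from −0.53 to −0.11 after repetitive dosing.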

How the results depend on the processing

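Of 960 recomputed log2 ratios of the members, 841 moved by less than their interval, 119 moved by more, and 0 of those past 2-fold changed sign. Those that moved by more were 36 of 103 as a mean over barcodes, 21 of 101 with gates on all UMIs and 7 of 14 over every barcode. Each other setting had at most 16 of 103. No paired analysis was possible because each condition has 1 library and no result comes from a test, and for the same reason no library could be left out. Over single-dose FBs, 2 members in place of 1 were past 2-fold without the 5% of barcodes with the most UMIs and as a mean over barcodes (Prkg2 at −1.08 and −1.10). In single-dose LipoFBs, 1 in place of 3 was past 2-fold with 1000 UMIs for the minimum and thinning. For Sfrp1 FB over LipoFB after repetitive dosing, 2 in place of 1 were past 2-fold with 1000 UMIs, with gates on all UMIs, without the top 5% and as a mean over barcodes. In single-dose LipoFBs, Prkg2 lay between −1.22 and −0.90 (past 2-fold under 8 of 9 alternatives) and Npr1 between −1.54 and −0.57 (6 of 9). For MyoFB over LipoFB after repetitive dosing, Gucy1b1 lay between −1.61 and −0.79 (6 of 9). In repetitive LipoFBs, Gucy1a1 lay between 0.83 and 1.07, and past 2-fold under 4 of 9 alternatives.

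The number of all genes past 2-fold follows the filter on low values. With a mean of at least 20 CPM, and with no filter, it was 539 and 3050 over single-dose FBs (1116 at 5 CPM), 389 and 2496 in single-dose LipoFBs (852), 459 and 4984 over repetitive FBs (904), 365 and 4648 in repetitive LipoFBs (709), 224 and 2779 in repetitive MatrixFBs (449), 56 and 2794 in organoid FBs (139), 683 and 3030 for MyoFB over LipoFB after a single dose (1511) and 826 and 4103 after repetitive dosing (1544). In single-dose MatrixFBs it was 478 at 20 CPM (1660 at 5 CPM). Low counts limit Prkg1 and Npr1 in the single-dose libraries, and every member in single-dose PBS MatrixFBs, where none had over 16 UMIs.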

Other observations

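Several genes of the pathway stood outside the rule for named genes and were picked out after their values were seen. Irag1, the Prkg1 substrate at the inositol trisphosphate receptor, measured 0.818 and 5.24 CPM in PBS and bleomycin FBs after a single dose (5 and 56 UMIs, log2 ratio 2.68, interval 1.37 to 4.36) and 1.21 and 14.98 CPM after repetitive dosing (log2 ratio 3.63, 3.28 to 4.00). In repetitive LipoFBs its log2 ratio was 4.61. Nppb, which encodes the natriuretic peptide BNP, had 0 UMIs in repetitive PBS FBs and 198 UMIs in repetitive bleomycin FBs, of which 2 were in LipoFBs. The 198 were of 57684035 FB UMIs, a level under the limit of 5 CPM, and single-dose counts of Nppb are not given here. Trpc6, a cation channel that the kinase can inhibit, had 17 and 309 UMIs in repetitive PBS and bleomycin FBs (log2 ratio 4.21). After a single dose it had 5 and 8 UMIs, of 6111220 and 10682316 FB UMIs, so its scaled level was not higher there. In organoid FBs, Nppc, which encodes C-type natriuretic peptide, measured 5.74 CPM with normal and 11.2 CPM with fibrogenic FBs (log2 ratio 0.97), and Ddah1, which breaks down an inhibitor of nitric oxide synthases, measured 55.5 and 107.8 CPM (0.96).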
